A study of Mus musculus with 22 samples.

Results

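Type I interferon response genes are the genes that cells switch on when interferon alpha or beta binds its receptor. Here they are 33 genes, chosen by symbol from a list of interferon-stimulated genes, out of 47069 genes in the deposited count table. All 33 were found once, and all 33 passed the filter on low counts. Their levels were followed across 22 mRNA libraries of mouse whole bone marrow. The marrow was that of mice transplanted with LSK cells (negative for lineage markers, positive for Sca-1 and Kit, and rich in blood stem cells and early progenitors), taken from Cas9 knock-in mice. The cells were transduced with guide RNAs and transplanted 24 h later, 10000 to 40000 per mouse, into C57BL/6J recipients irradiated with 7 Gy, and all groups share the Cas9 allele, the irradiation and the transplant. The groups were sgEzh2 + sgRunx1 (4 libraries), sgBcor + sgRunx1 (3), sgRunx1 + sgLuc (3), sgEzh2 + sgLuc (3), sgBcor + sgLuc (3) and sgLuc (6), where sgLuc is a guide against luciferase, a gene that mice lack. Marrow was taken at signs of leukemia or after 6 months, and the labels do not say which applied to a library, nor the sex, the age or whether any recipient cells remained. Each replicate is taken as the marrow of a separate mouse. Where that does not hold, the p-values below measure only the spread between these samples. The groups were compared to ask what each guide, alone or with the Runx1 guide, did to marrow expression.

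Interferon alpha and beta signal through the receptor chains Ifnar1 and Ifnar2 and the kinases Jak1 and Tyk2, which activate Stat2. Stat2 joins Irf9 in a complex that binds the interferon-stimulated response element, a short repeat of GAAA in the promoters of its targets. The targets include sensors of viral RNA and DNA, antiviral effectors that block virus entry, translation or replication, and regulators such as Irf7 that amplify the signal or Usp18 that dampens it. In bone marrow this response is known to act on blood stem cells, and plasmacytoid dendritic cells are a potent source of interferon alpha.

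The core of that element was searched in RefSeq promoters (GRCm38.p6, 300 bases from 250 before to 50 after the gene start) as GAAANNGAAA or, on the other strand, TTTCNNTTTC, and matches that overlap each other were counted. Of the 33 genes, 23 had a promoter in the table, and 14 of these 23 (60.9%) held a match, against 21 of 42 genes (50%) of a list of other interferon response genes and 1079 of all 27025 genes with a promoter (3.99%). The other 10 genes, among them Mx1, Mx2, Usp18, Oas2 and Zbp1, had no entry. The stretches of Oas1a, Oas1g and Ifi44 are shown because these genes carry the differences described below, and those of Isg15 and Ifit1 as typical targets. Each is 150 bases, 5′ to 3′ on the gene's strand and ending before the annotated start, with the matches in capitals.
Oas1a, minus strand, chr5:120907526-120907675: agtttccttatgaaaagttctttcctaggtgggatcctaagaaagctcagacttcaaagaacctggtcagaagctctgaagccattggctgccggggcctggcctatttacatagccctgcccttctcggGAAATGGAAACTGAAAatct
Oas1g, minus strand, chr5:120887614-120887763: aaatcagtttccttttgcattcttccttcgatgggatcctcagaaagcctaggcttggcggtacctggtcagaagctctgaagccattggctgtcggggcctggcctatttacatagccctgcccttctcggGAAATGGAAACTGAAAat
Isg15, minus strand, chr4:156200819-156200968: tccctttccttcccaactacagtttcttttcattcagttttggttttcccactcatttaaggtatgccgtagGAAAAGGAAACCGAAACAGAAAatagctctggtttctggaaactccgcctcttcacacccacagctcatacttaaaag
Ifit1, plus strand, chr19:34640721-34640870: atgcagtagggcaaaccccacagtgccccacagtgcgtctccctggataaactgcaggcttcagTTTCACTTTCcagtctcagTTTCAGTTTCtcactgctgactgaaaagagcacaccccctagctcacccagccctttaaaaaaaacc
Ifi44, minus strand, chr3:151749961-151750110: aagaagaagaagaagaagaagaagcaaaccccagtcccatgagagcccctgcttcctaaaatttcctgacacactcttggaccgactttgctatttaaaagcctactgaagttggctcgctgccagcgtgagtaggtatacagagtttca
Oas1a and Oas1g ended in the same pair of overlapping matches, and their stretches were identical at 129 of 145 aligned bases (89%). Isg15 held 3 overlapping matches and Ifit1 held 2 separate ones, while these letters were not found in the Ifi44 window.

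Libraries held 30023722 to 57175449 counted reads. Ezh2 mRNA averaged 55.1 CPM in sgEzh2 + sgRunx1 and 62.6 in sgEzh2 + sgLuc, against 99.8 in sgLuc (log2 fold changes −0.86 and −0.67, edgeR FDR 0.00127 and 0.0212). No group given the Runx1 guide had lower Runx1 mRNA than sgLuc, and Bcor mRNA was higher in sgBcor + sgLuc, at 146 CPM against 60.1 in sgLuc. Guide cuts need not lower an mRNA. Reads of Y-linked genes were present in all 6 sgLuc libraries and in none of the 16 others, so sex and guides cannot be told apart against sgLuc, nor in the interactions, which use it. One library stood apart, sgEzh2 + sgLuc replicate 3, in which summed T and NK cell markers reached 2535 CPM against 3.36 to 195 in the other 21 libraries, and neutrophil markers 248 against 34553 to 107926. Leaving it out moved the number of genes passing, of 17659, by over 1.5 times in 11 of the 12 comparisons, sgEzh2 + sgRunx1 against sgEzh2 + sgLuc being the exception (1701, against 2228 with it). Against sgLuc it was then 3163 for sgEzh2 + sgRunx1 (1787 with it), 4133 for sgBcor + sgRunx1 (2547), 2647 for sgRunx1 + sgLuc (1434), 191 for sgEzh2 + sgLuc (1456) and 1484 for sgBcor + sgLuc (558). It was 2726 for sgEzh2 + sgRunx1 against sgBcor + sgRunx1 (1245), 570 for sgEzh2 + sgRunx1 against sgRunx1 + sgLuc (33), 913 for sgBcor + sgRunx1 against sgRunx1 + sgLuc (219), 3827 for sgBcor + sgRunx1 against sgBcor + sgLuc (2161), 144 for the Ezh2 interaction (93) and 1660 for the Bcor interaction (3.22% of all genes with it). The shares of all genes given below include this library. These are bulk samples, so fewer cells of a type and less RNA per cell cannot be told apart.

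In sgLuc marrow the 33 genes covered a wide range per unit of length. Ifitm3, which blocks virus entry at endosomes, stood highest at 716 ± 172 FPKM (SD, n = 6), followed by the mitochondrial protein gene Ifi27l2a at 238, the virion tether Bst2 at 169.96 and the transcription factor Irf7 at 77.2. The lowest were the RNA-binding protein gene Ifit1 at 2.45 FPKM and Ifi44, an interferon-induced cytoplasmic protein gene, at 0.622. All but Ifi44 and Oas1g had 0.502 FPKM or more in every library. The remaining levels are TMM-scaled CPM (read counts scaled to the size of the library), listed in the order of the replicate numbers unless a range is given.

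The 33 genes varied together from library to library, and libraries of the same guides differed in direction. Each library was summarised by the median, over the 33 genes, of the difference in log2 CPM from the mean of sgLuc. In sgEzh2 + sgRunx1 it was 0.93, 0.30, −0.70 and 0.88, and in sgBcor + sgRunx1 −0.16, 0.22 and −0.46. It was 0.28, −0.10 and 0.23 in sgRunx1 + sgLuc, 0.49, 0.19 and −0.50 in sgEzh2 + sgLuc and −0.46, 0.42 and −0.64 in sgBcor + sgLuc, against −0.36 to 0.27 in sgLuc. Replicates 1, 2 and 4 of sgEzh2 + sgRunx1 were thus above every sgLuc library and replicate 3 below every one. In sgBcor + sgLuc, replicate 2 was above every sgLuc library and replicates 1 and 3 below every one. The median of all 17659 genes tested stayed between −0.10 and 0.04 in every library.

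**Figure D1:**
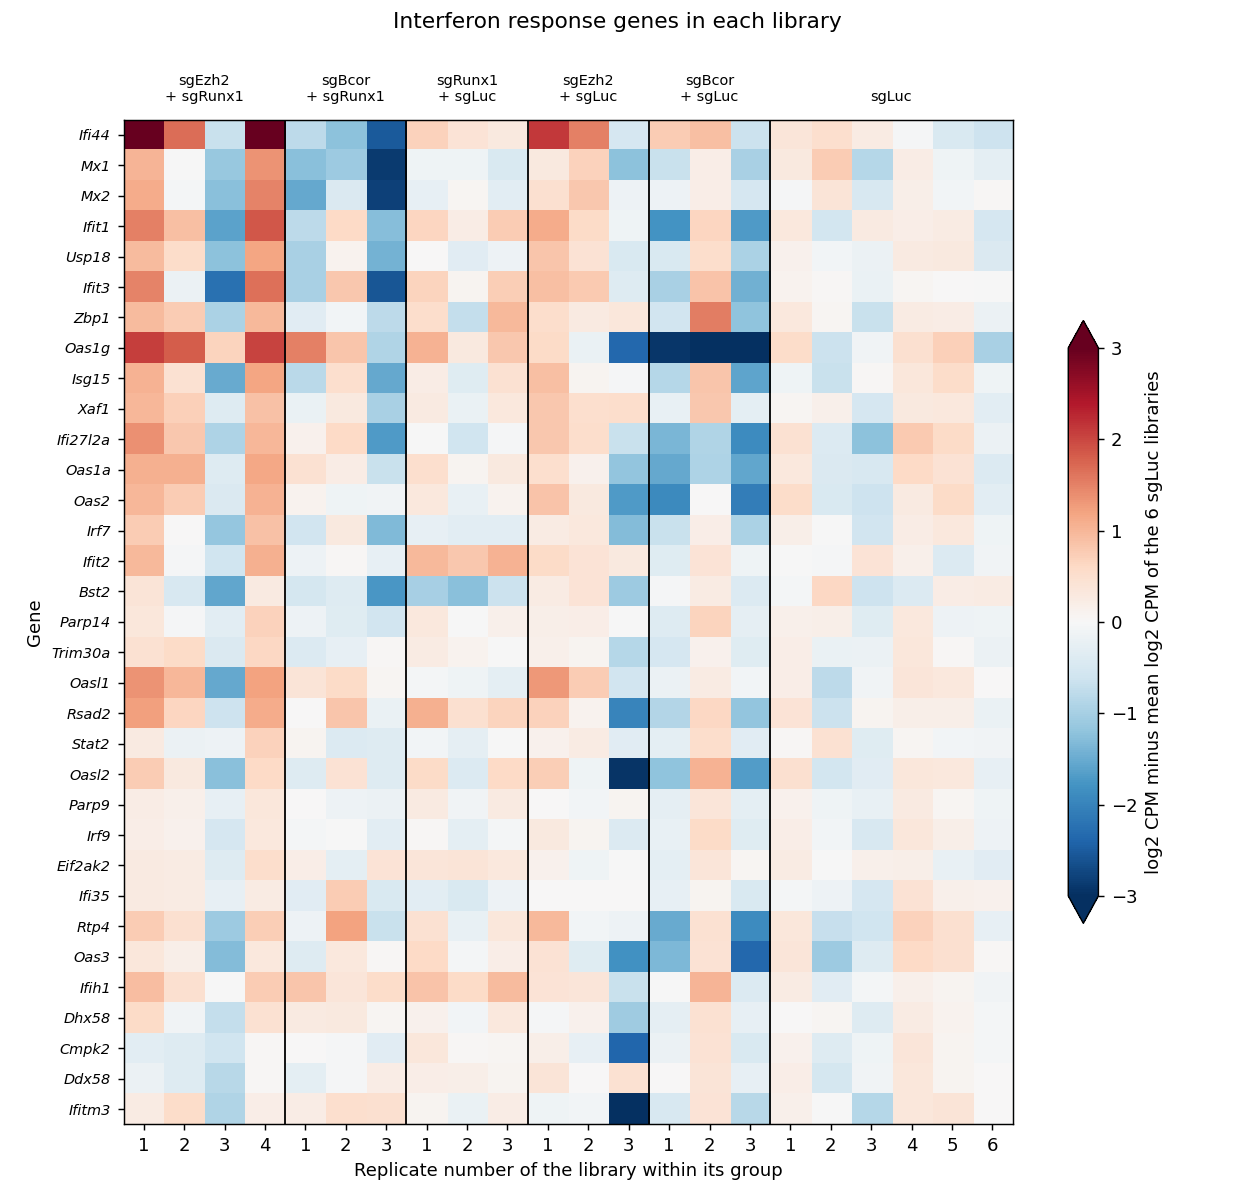
Heat map of the 33 interferon response genes (rows) in the 22 libraries (columns, by group and replicate), coloured by log2 CPM minus the mean log2 CPM of the 6 sgLuc libraries, with rows ordered by the log2 fold change of sgEzh2 + sgRunx1 against sgBcor + sgRunx1 and colours ending at ±3. Whole columns are red or blue together, such as replicate 3 of sgEzh2 + sgRunx1 (median −0.70) beside replicates 1 and 4 (0.93 and 0.88), and the Oas1g row is darkest blue in sgBcor + sgLuc.

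The pattern could be followed gene by gene. Replicate 3 of sgEzh2 + sgRunx1 held the lowest level of its group for 32 of the 33 genes, the exception being Stat2, while replicate 4 held the highest for 19 and replicate 1 for 13. Replicate 2 of sgBcor + sgLuc held the highest of its group for 32 of 33, the exception being Oas1g. The median SD of log2 CPM over the 33 genes was 0.793 in sgEzh2 + sgRunx1 and 0.606 in sgBcor + sgLuc, against 0.25 and 0.248 for all genes tested in the same groups, and 32 of the 33 genes lay above the all-gene median in each. In sgRunx1 + sgLuc the members' median SD was 0.209, against 0.207 for all genes, and in sgLuc 0.337 against 0.31. It was 0.652 in sgEzh2 + sgLuc and 0.468 in sgBcor + sgRunx1, against 0.529 and 0.375 for all genes. There 21 and 17 of the 33 genes lay above the all-gene median. Ifit3, Ifi44 and Oasl2 varied most within groups (pooled SD 1.11, 1.06 and 1.01 on the log2 scale), and Parp9, Eif2ak2 and Ddx58 least (0.222, 0.278 and 0.285).

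The ubiquitin-like modifier Isg15 and its protease Usp18, which also dampens receptor signalling, showed the pattern of the set. Isg15 stood at 25.3, 16.8, 4.3 and 27.9 CPM in sgEzh2 + sgRunx1 and at 7, 17.6 and 4.2 in sgBcor + sgRunx1, against 7.71 to 18 (median 12) in sgLuc. In the single groups it stood at 14.3, 9.5 and 17 in sgRunx1 + sgLuc, 23.2, 13 and 12 in sgEzh2 + sgLuc and 6.74, 22.1 and 4.08 in sgBcor + sgLuc. Replicate 3 of sgEzh2 + sgRunx1 and replicates 1 and 3 of sgBcor + sgRunx1 and of sgBcor + sgLuc lay below all sgLuc libraries, and replicates 1 and 4 of sgEzh2 + sgRunx1 above all of them. Usp18 stood at 21.2, 16, 4.57 and 24.9 CPM in sgEzh2 + sgRunx1 and 5.52, 11.8 and 4.06 in sgBcor + sgRunx1, against 8.06 to 13.3 (median 11.1) in sgLuc. Its values were 10.9, 8.53 and 9.75 in sgRunx1 + sgLuc, 19.4, 14.7 and 7.84 in sgEzh2 + sgLuc and 7.9, 15.8 and 5.63 in sgBcor + sgLuc. The groups overlapped for both genes in all comparisons with sgLuc, and neither passed the edgeR test in any comparison.

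Among the Ifit genes, whose products bind foreign RNA, Ifit1 stood at 18.6, 12.1, 2.09 and 23.7 CPM in sgEzh2 + sgRunx1 and 3.74, 9.82 and 2.64 in sgBcor + sgRunx1, against 4.39 to 8.11 (median 7.51) in sgLuc. The singles held 10.1, 7.53 and 11 (sgRunx1 + sgLuc), 13.9, 9.66 and 5.92 (sgEzh2 + sgLuc) and 1.82, 10.1 and 1.95 (sgBcor + sgLuc). Ifit3 had the largest pooled spread of the 33: it stood at 33.8, 10.6, 2.5 and 38 CPM in sgEzh2 + sgRunx1 and 6.09, 21 and 1.97 in sgBcor + sgRunx1, against 10.5 to 12.9 (median 12.2) in sgLuc. It was at 19.1, 12.8 and 19.9 in sgRunx1 + sgLuc, 22.3, 20.5 and 9.22 in sgEzh2 + sgLuc and 6.05, 21.9 and 4.36 in sgBcor + sgLuc. For both genes replicates 1 and 4 of sgEzh2 + sgRunx1 were the highest of all 22 libraries. The antiviral radical enzyme Rsad2 (viperin) stood at 47.6, 31.7, 13.1 and 43.8 CPM in sgEzh2 + sgRunx1 and 20.5, 36 and 17.6 in sgBcor + sgRunx1, against 13 to 27 (median 22.1) in sgLuc. Its levels in the singles were 42.5, 28.4 and 32.1 in sgRunx1 + sgLuc, 32.6, 21.9 and 5.05 in sgEzh2 + sgLuc and 11, 31.3 and 8.85 in sgBcor + sgLuc, so that all 3 sgRunx1 + sgLuc libraries lay above sgLuc (log2 fold change 0.73, edgeR FDR 0.4).

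Oas2 and Oasl2 belong to the oligoadenylate synthetases, which make the activator of RNase L, and their OAS-like relatives. Oas2 stood at 105, 89.5, 38.8 and 108 CPM in sgEzh2 + sgRunx1 and 56.1, 47.7 and 48.8 in sgBcor + sgRunx1, against 34.4 to 77.9 (median 52.9) in sgLuc. In sgRunx1 + sgLuc it was 65.3, 45.3 and 56.3, in sgEzh2 + sgLuc 95.2, 64.7 and 16.2 and in sgBcor + sgLuc 13.9, 53 and 12.5, and sgEzh2 + sgLuc replicate 3 and sgBcor + sgLuc replicates 1 and 3 were below every sgLuc library. Oasl2 stood at 119, 86.2, 29.1 and 106 CPM in sgEzh2 + sgRunx1 and 53.9, 94 and 53.3 in sgBcor + sgRunx1, against 48 to 97.2 (median 73.3) in sgLuc. The highest and the lowest value of all 22 libraries both lay in single groups, with 30.1, 144 and 21.7 in sgBcor + sgLuc and 117, 64.4 and 9.07 in sgEzh2 + sgLuc, while sgRunx1 + sgLuc held 104, 52.5 and 106.

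The 3 regulators of transcription were examined next. Irf7, the transcription factor that amplifies interferon production, stood at 149, 88.8, 39.4 and 161 CPM in sgEzh2 + sgRunx1 and 59.2, 108 and 35.1 in sgBcor + sgRunx1, against 58.6 to 109 (median 92.6) in sgLuc. Its values in the singles were 73.8, 70.7 and 70.1 (sgRunx1 + sgLuc), 103, 109 and 35.5 (sgEzh2 + sgLuc) and 54.9, 101 and 45 (sgBcor + sgLuc). Irf9, the DNA-binding partner of Stat2, stood at 103, 98.1, 63.2 and 111 CPM in sgEzh2 + sgRunx1 and 86, 88.8 and 71 in sgBcor + sgRunx1, against 63.9 to 113 in sgLuc. It was at 90.8, 72.9 and 86 in sgRunx1 + sgLuc, 109.62, 94 and 67.3 in sgEzh2 + sgLuc and 76.6, 132 and 68.8 in sgBcor + sgLuc. Stat2 stood at 98.6, 72.5, 73 and 131 CPM in sgEzh2 + sgRunx1 and 86.2, 61.3 and 62.6 in sgBcor + sgRunx1, against 63.3 to 112 (median 80.2) in sgLuc, with 76.8, 67.2 and 81.3 in sgRunx1 + sgLuc, 89.8, 97.2 and 64.4 in sgEzh2 + sgLuc and 66.6, 117 and 64.3 in sgBcor + sgLuc. None of these 3 genes passed in any comparison. Irf7 overlaps Phrf1 on the opposite strand and Irf9 overlaps Rnf31 on the same strand (GENCODE M21), so reads may be shared or left out, as they may be between Rtp4 and Masp1 and between Parp9 and Dtx3l on opposite strands.

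Of the RNA sensors, Ddx58 (RIG-I) stood at 43.8, 38.2, 27.9 and 51.2 CPM in sgEzh2 + sgRunx1 and 40.8, 48.6 and 58 in sgBcor + sgRunx1, against 34.6 to 62.5 (median 51.3) in sgLuc, and at 57.4, 56 and 52.5 in sgRunx1 + sgLuc, 65.3, 50.1 and 67.7 in sgEzh2 + sgLuc and 50.3, 65.1 and 42.1 in sgBcor + sgLuc. All 4 sgEzh2 + sgRunx1 libraries lay below all 3 of sgRunx1 + sgLuc (log2 fold change −0.46, edgeR FDR 0.368), which does not pass. Ifih1 (MDA5), a sensor of longer RNA, stood at 45.5, 32.9, 23.4 and 40.2 CPM in sgEzh2 + sgRunx1, 42.7, 30.5 and 34.9 in sgBcor + sgRunx1 and 42.8, 35.1 and 45.6 in sgRunx1 + sgLuc, against 18.7 to 28.4 (median 24.2) in sgLuc. All sgBcor + sgRunx1 and sgRunx1 + sgLuc libraries lay above all of sgLuc, and no Ifih1 difference from sgLuc passed (log2 fold change 0.78, SE 0.27, edgeR FDR 0.0789 for sgRunx1 + sgLuc). It was at 31.8, 30.6 and 14.9 in sgEzh2 + sgLuc and 23.7, 48.1 and 17.9 in sgBcor + sgLuc. Zbp1, a sensor of Z-form nucleic acid that can start necroptosis, stood at 67.7, 59.5, 17.9 and 68.8 CPM in sgEzh2 + sgRunx1 and 27.6, 33.1 and 20.1 in sgBcor + sgRunx1, against 21.7 to 43.6 (median 38.4) in sgLuc. Replicate 2 of sgBcor + sgLuc held the highest level of all 22 libraries (23.4, 100.12 and 15.1 in that group), sgEzh2 + sgLuc held 50.2, 41.8 and 43.7 and sgRunx1 + sgLuc 50.2, 21.1 and 68.6. Eif2ak2, the kinase PKR that stops translation, stood at 43.8, 42.7, 27.5 and 52 CPM in sgEzh2 + sgRunx1 and 41.7, 29.7 and 47.7 in sgBcor + sgRunx1, while sgRunx1 + sgLuc held 46.8, 47.4 and 45.2, sgEzh2 + sgLuc 39.7, 33.3 and 35.6 and sgBcor + sgLuc 29.6, 46.5 and 37.7, against 28.6 to 43 in sgLuc.

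Bst2 is also a known surface marker of mouse plasmacytoid dendritic cells, and its level in marrow need not follow interferon alone. It stood at 166, 90.1, 42.8 and 152 CPM in sgEzh2 + sgRunx1 and 88.5, 96.2 and 38 in sgBcor + sgRunx1, against 83.1 to 195 (median 135) in sgLuc. All 3 sgRunx1 + sgLuc libraries (64, 53.1 and 81.2) lay below sgLuc (log2 fold change −0.998, SE 0.41, edgeR FDR 0.152, which does not pass), and sgEzh2 + sgLuc and sgBcor + sgLuc held 149, 169 and 59.8 and 124, 149.98 and 95.5. Ifitm3 stood at 566, 706, 256 and 547 CPM in sgEzh2 + sgRunx1 and 565, 686 and 666 in sgBcor + sgRunx1, against 264 to 624 (median 509) in sgLuc, at 505, 416 and 564 in sgRunx1 + sgLuc and at 342, 638 and 268 in sgBcor + sgLuc. In sgEzh2 + sgLuc it was 436, 455 and 23.3, with the lowest level of all 22 libraries in replicate 3, where summed classical monocyte markers were 191 CPM against 1757 to 5130.2 elsewhere.

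The question of whether marrow of the Ezh2 and Runx1 guides differed from control marrow gave 1 called gene of 33. Ifi44 stood at 11.8, 3.92, 0.728 and 11.2 CPM in sgEzh2 + sgRunx1, against 0.761 to 1.71 (median 1.29) in sgLuc. Replicates 1, 2 and 4 lay above every sgLuc library and replicate 3 below every one, so the groups overlapped. The difference passed (log2 fold change 2.48, SE 0.58, edgeR FDR 0.0096; means 6.91 ± 5.46, SD, n = 4, and 1.24 ± 0.381, n = 6). Ifi44 (ENSMUSG00000028037) lies on chromosome 3 at 151730922 to 151749960 on the minus strand (GRCm38, GENCODE M21). Of all 17659 genes, 10.1% passed in this comparison, 4.03% as higher, so the 1 of 33 is not above the share of all genes. The median log2 fold change of the 33 was 0.49 and 29 were above 0, against a median of 0.00494 and 50.5% above 0 for all genes. Without replicate 3, 4 genes passed, all higher: Ifi44, Oasl1, Ifit2 and Oas1g. Oas1g, at 21.8, 18.2, 8.21 and 21.1 CPM in sgEzh2 + sgRunx1 against 2.57 to 8.39 (median 5.94) in sgLuc, missed the threshold with all libraries (log2 fold change 1.63, SE 0.51, edgeR FDR 0.05003) and passed in 8 of 27 alternative fits, so that 2 genes passed without sgBcor + sgRunx1 replicate 1 or 3, sgEzh2 + sgLuc replicate 1 or 3 or sgBcor + sgLuc replicate 1.

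For the Bcor and Runx1 guides, Mx1 was the called gene and it was lower. Mx1 and Mx2 encode dynamin-like GTPases that block virus replication, and many laboratory mouse strains carry a defective Mx1 allele. Mx1 stood at 13.5, 15.2 and 4.39 CPM in sgBcor + sgRunx1, against 18.1 to 55.7 (median 33.8) in sgLuc. All 3 sgBcor + sgRunx1 libraries were below all 6 of sgLuc (log2 fold change −1.65, SE 0.54, edgeR FDR 0.0483). Mx2 stood at 2.36, 5.07 and 0.946 in sgBcor + sgRunx1, against 4.93 to 9.07 in sgLuc, overlapped in replicate 2 and did not pass (log2 fold change −1.33, SE 0.50, edgeR FDR 0.08). Ifi44, at 0.667, 0.481 and 0.167 against 0.761 to 1.71, was below every sgLuc library and did not pass (log2 fold change −1.49, SE 0.71, edgeR FDR 0.178). In this comparison 14.4% of all genes passed, 9.69% as lower, against 1 of 33 here. Without overlap, 2 members were lower (Mx1 and Ifi44) and 1 higher (Ifih1), where 12% and 7.6% of all genes were. The median log2 fold change was −0.14 and 10 of 33 were above 0. The Mx1 call was close to the threshold: it held in 7 of 27 alternative fits and ended without any 1 of 18 libraries, that is, all but sgEzh2 + sgRunx1 replicates 3 and 4, sgEzh2 + sgLuc replicate 3 and sgLuc replicate 3. Without sgEzh2 + sgRunx1 replicate 3, Mx1 and Mx2 both passed. The most distant value was −1.23 without sgBcor + sgRunx1 replicate 3 (edgeR FDR 0.208, 0.0301 to 0.208 over the omissions). Mx1 (ENSMUSG00000000386, chromosome 16, 97447035 to 97462907, minus strand) and Mx2 (ENSMUSG00000023341, chromosome 16, 97535308 to 97560900, plus strand) are neighbours.

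Set against each other, the doubles gave the most called members, 3 of 33 (9.09%), all higher in sgEzh2 + sgRunx1, where 7.05% of all genes passed and 4.83% as higher, a share near that of all genes. Ifi44 stood at 11.8, 3.92, 0.728 and 11.2 CPM in sgEzh2 + sgRunx1, against 0.667, 0.481 and 0.167 in sgBcor + sgRunx1 (log2 fold change 3.96, SE 0.82, edgeR FDR 0.00693). The lowest sgEzh2 + sgRunx1 library lay just above the highest of sgBcor + sgRunx1, and the call held in all 27 alternative fits. This was the 1 member without overlap, where 12.4% of all genes were higher without overlap. Mx1 stood at 66.1, 32.5, 14.8 and 82.8 in sgEzh2 + sgRunx1, against 13.5, 15.2 and 4.39 in sgBcor + sgRunx1 (log2 fold change 2.15, SE 0.58, edgeR FDR 0.0304). Mx2 stood at 15.1, 6.63, 2.87 and 19.5 in sgEzh2 + sgRunx1, against 2.36, 5.07 and 0.946 in sgBcor + sgRunx1 (log2 fold change 1.98, SE 0.54, edgeR FDR 0.0299). Replicate 3 of sgEzh2 + sgRunx1 lay within the sgBcor + sgRunx1 range for both Mx genes, and their calls held in 21 and 22 of 27 alternative fits. Both calls ended without sgEzh2 + sgRunx1 replicate 1 or 4 or sgBcor + sgRunx1 replicate 1 or 3, with edgeR FDR of 0.0647 to 0.143 for Mx1 (0.0143 to 0.143 over all omissions) and 0.081 to 0.141 for Mx2 (0.0102 to 0.141). Over the set the median log2 fold change was 0.58 and 28 of 33 genes were above 0, against 0.0223 and 52% for all genes. The members next in line, Usp18 (1.23, edgeR FDR 0.131) and Xaf1 (0.85, edgeR FDR 0.143), did not pass.

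**Figure D2:**
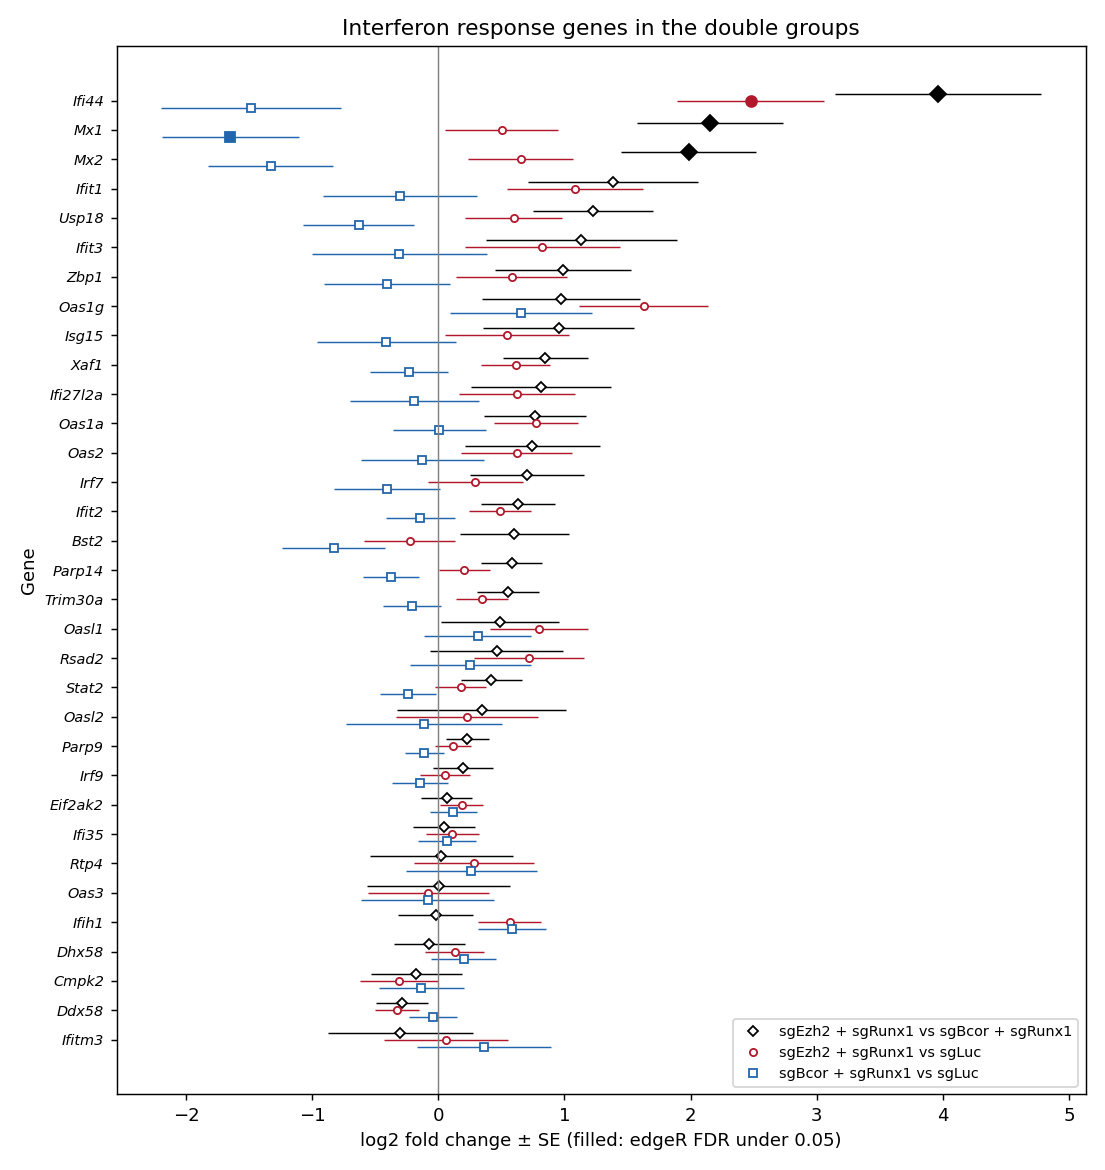
Log2 fold change ± SE of each of the 33 genes (rows) for sgEzh2 + sgRunx1 against sgBcor + sgRunx1 (diamonds), sgEzh2 + sgRunx1 against sgLuc (circles) and sgBcor + sgRunx1 against sgLuc (squares), filled where the edgeR FDR was under 0.05. The 3 filled diamonds are Ifi44, Mx1 and Mx2 at 3.96, 2.15 and 1.98, and the comparisons share libraries, so their points are not independent.

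The single groups were compared with sgLuc to see each guide alone. With the Runx1 guide, Ifit2 was higher: it stood at 44.2, 39.5 and 45.9 CPM in sgRunx1 + sgLuc, against 16.8 to 29.9 (median 21.9) in sgLuc, with no overlap (log2 fold change 0.93, SE 0.26, edgeR FDR 0.0337). It was at 43.9, 21.9, 14.8 and 47 in sgEzh2 + sgRunx1, 20.043, 22.9 and 18.8 in sgBcor + sgRunx1, 33.3, 29.7 and 27.5 in sgEzh2 + sgLuc and 17.5, 29.6 and 20.5 in sgBcor + sgLuc. Of all genes, 8.12% passed in this comparison, 2.76% as higher, against 1 of 33. Without overlap, 4 members were higher (Ifit2, Rsad2, Ifih1 and Eif2ak2) and 1 lower (Bst2), where 9.27% and 11.9% of all genes were. The Ifit2 call held in 19 of 27 alternative fits and ended without any of sgRunx1 + sgLuc replicates 1, 2 or 3 (edgeR FDR 0.113, 0.0844 and 0.104) or sgLuc replicates 1, 2, 5 or 6 (0.0506 to 0.069; 0.00997 to 0.113 over all omissions). Ifih1 passed as well without sgEzh2 + sgLuc replicate 3 or sgBcor + sgLuc replicate 2. Ifit2 (ENSMUSG00000045932) lies on chromosome 19 at 34550694 to 34576419, plus strand. sgBcor + sgRunx1, at 18.8 to 22.9 CPM, lay below all sgRunx1 + sgLuc libraries for Ifit2, and that difference did not pass (log2 fold change −1.07, SE 0.31, edgeR FDR 0.0954).

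With the Ezh2 guide alone no member passed by edgeR, by DESeq2 or with any 1 of the 22 libraries left out, while 8.25% of all genes did (1456 genes, and 191 without sgEzh2 + sgLuc replicate 3), and 1 of 33, Ifi44, had an unadjusted p under 0.05. Ifi44 stood at 5.38, 3.47 and 0.83 CPM in sgEzh2 + sgLuc, against 0.761 to 1.71 in sgLuc, with replicates 1 and 2 above every sgLuc library and replicate 3 among them (log2 fold change 1.38, SE 0.62, edgeR FDR 0.159). The 1 member without overlap was Xaf1, higher in sgEzh2 + sgLuc (log2 fold change 0.59, SE 0.30, edgeR FDR 0.212), where 7.62% of all genes were higher without overlap. The median log2 fold change of the set was 0.03, and 0.32 without replicate 3.

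With the Bcor guide alone a neighbouring pair of oligoadenylate synthetases was low. Oas1g stood at 0.632, 0.2 and 0.131 CPM in sgBcor + sgLuc, against 2.57 to 8.39 (median 5.94) in sgLuc, and all 3 libraries lay below every other library of the series (log2 fold change −4.13, SE 0.75, edgeR FDR 0.00548). Oas1a stood at 10.9, 16.6 and 10.8 in sgBcor + sgLuc, against 22.5 to 47.7 (median 31.6) in sgLuc, again with no overlap, and did not pass (log2 fold change −1.38, SE 0.39, edgeR FDR 0.0613). Replicate 2, in which the median of the set was above sgLuc, was still low for both genes, while the related Oas3 stood at 32, 109 and 15.9 in sgBcor + sgLuc, against 38.1 to 122 in sgLuc. Oas1a and Oas1g are near copies, with 97.5% identity over 1860 aligned bases of their longest coding transcripts (GENCODE M21), so the authors' counting could split or drop their reads and the level of each is uncertain. Their summed level, which does not depend on a split between them, was 11.6, 16.8 and 10.9 CPM in sgBcor + sgLuc, against 26.3 to 54.8 in sgLuc. The relatives Oas1b and Oas1c were at 3.99 to 6.07 and 3.14 to 4.08 CPM in sgBcor + sgLuc, against 4.31 to 10.4 and 4.20 to 6.27 in sgLuc. In this comparison 3.16% of all genes passed, 1.19% as lower, against 1 of 33, and 6.75% were lower without overlap, against these 2 of 33. The Oas1g call ended without sgBcor + sgLuc replicate 3 (−3.74, edgeR FDR 0.0541, 0.000888 to 0.0541 over the omissions). Oas1a passed too without sgEzh2 + sgRunx1 replicate 3 or sgEzh2 + sgLuc replicate 3, and Oas2 without sgBcor + sgLuc replicate 2. Oas1a (ENSMUSG00000052776) lies at 120896256 to 120907521 and Oas1g (ENSMUSG00000066861) at 120876142 to 120887613 on the minus strand of chromosome 5.

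The pair was higher where the Runx1 guide was given with the Bcor guide. Oas1g stood at 14.6, 9.14 and 2.73 CPM in sgBcor + sgRunx1, against 0.632, 0.2 and 0.131 in sgBcor + sgLuc (a difference that passed: log2 fold change 4.78, SE 0.80, edgeR FDR 0.00126). Oas1a stood at 43.3, 36.9 and 19.9 in sgBcor + sgRunx1, against 10.9, 16.6 and 10.8 in sgBcor + sgLuc, and passed too (log2 fold change 1.39, SE 0.44, edgeR FDR 0.0436). The groups did not overlap for either gene, and these were the 2 called members of 33 in a comparison where 12.2% of all genes passed, 3.47% as higher. Of all genes 13.6% were higher without overlap, and 17.6% lower, as were Mx1 and Ifi44. The Oas1g call held in all 27 alternative fits, and without sgBcor + sgLuc replicate 2 Oas2 and Rtp4 passed beside it. That of Oas1a held in 14 of 27 and ended without any 1 of 11 libraries: sgEzh2 + sgRunx1 replicate 1, sgBcor + sgRunx1 replicates 1 and 2, sgEzh2 + sgLuc replicate 2, sgLuc replicate 1 and every sgRunx1 + sgLuc and sgBcor + sgLuc library (edgeR FDR up to 0.151, without sgBcor + sgLuc replicate 3, and 0.0169 to 0.151 over the omissions). Summed, the pair stood at 57.9, 46.1 and 22.6 CPM in sgBcor + sgRunx1. In this comparison the median of the set was 0.0109, with 17 of 33 above 0, and the pair's fold changes were the highest of the 33.

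Oas1g was also the 1 member called in the interaction of the Bcor and Runx1 guides, a test of whether both guides together did more or less than their separate log2 effects add up to (log2 difference 4.16, SE 0.97, edgeR FDR 0.0287), where 3.22% of all genes were called, 1.46% as higher. It ended without sgRunx1 + sgLuc replicate 1 or 2 or sgBcor + sgLuc replicate 2 or 3 (edgeR FDR 0.0777, 0.0891, 0.0581 and 0.087, 0.0079 to 0.0891 over the omissions). In the interaction of the Ezh2 and Runx1 guides 0 of 33 passed by edgeR and 0 by DESeq2, with 2 at an unadjusted p under 0.05, where 0.527% of all genes passed. Oas1g stood at 10.5, 6.29 and 8.97 CPM in sgRunx1 + sgLuc and 7.6, 4.48 and 0.962 in sgEzh2 + sgLuc, and Oas1a at 66.5, 66.4, 24.3 and 70.3 in sgEzh2 + sgRunx1, 44.7, 33.4 and 38.6 in sgRunx1 + sgLuc and 45.1, 34.5 and 13.9 in sgEzh2 + sgLuc.

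**Figure D3:**
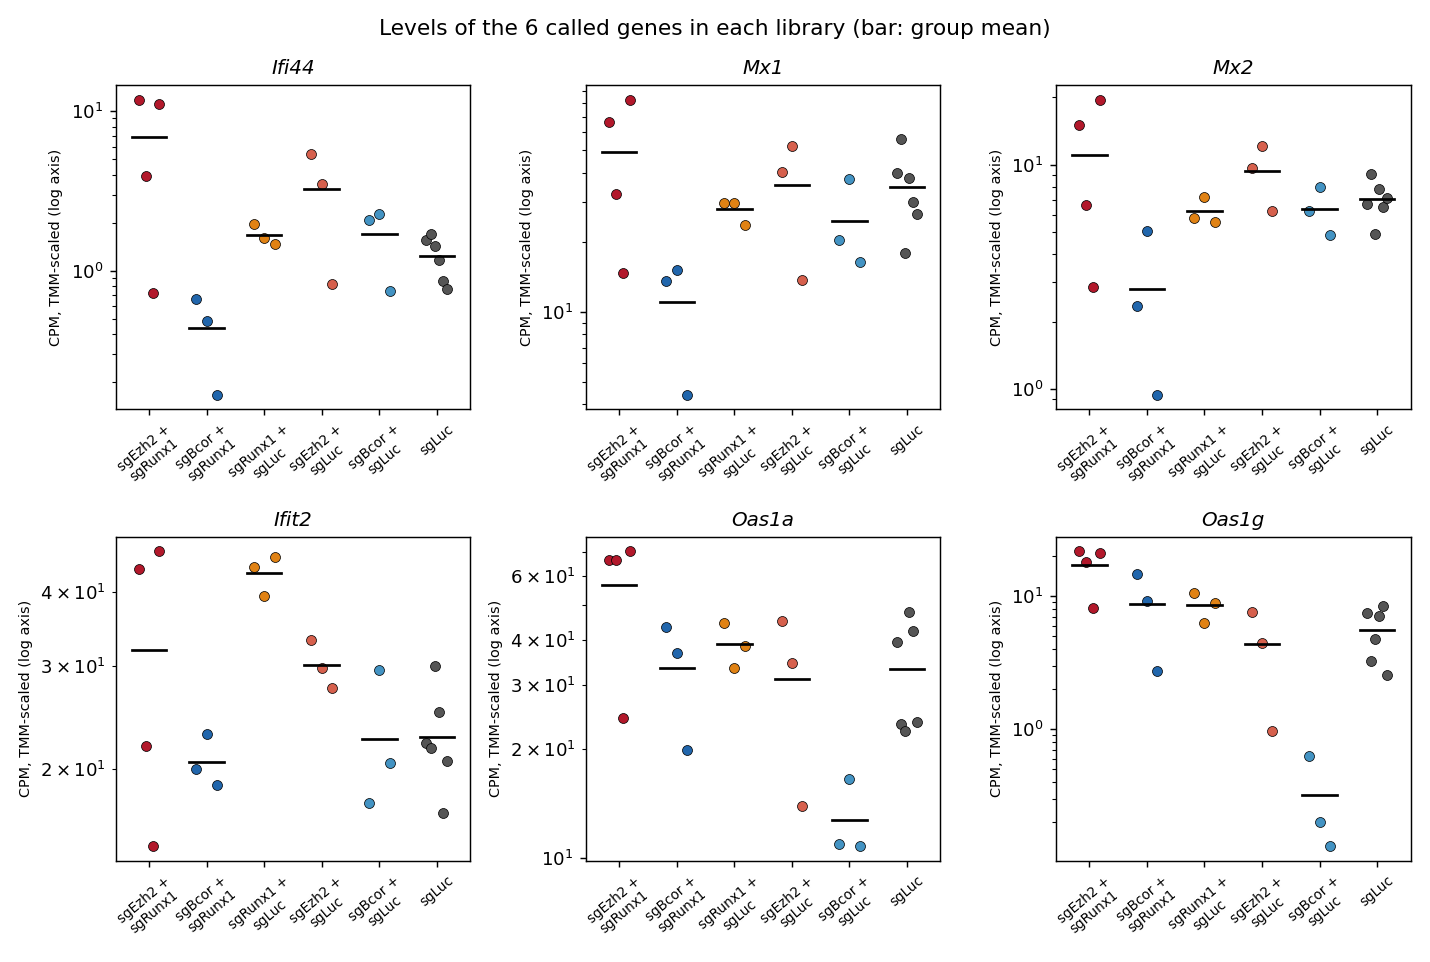
TMM-scaled CPM on a log axis of the 6 genes called in any comparison, one panel per gene, with points for single libraries by group and bars for group means. Oas1g in sgBcor + sgLuc (0.131 to 0.632) lies below all other groups, and for Ifi44, Mx1 and Mx2 the lowest sgEzh2 + sgRunx1 point is replicate 3 (0.728, 14.8 and 2.87).

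Adding a guide to a single gave 0 called members in 3 further comparisons. For sgEzh2 + sgRunx1 against sgRunx1 + sgLuc the count was 0 by edgeR and 0 by DESeq2, with 3 at an unadjusted p under 0.05, where 0.187% of all genes passed (33 genes, and 570 without sgEzh2 + sgLuc replicate 3). Ddx58 and Cmpk2 were lower without overlap, where 10.8% of all genes were. For sgEzh2 + sgRunx1 against sgEzh2 + sgLuc it was 0 by edgeR and 2 by DESeq2, with 3 at an unadjusted p under 0.05, where 12.6% passed. A gene passed with 1 library left out in 8 cases: Oas1g without sgEzh2 + sgRunx1 replicate 3, sgBcor + sgRunx1 replicate 1 or 3, sgEzh2 + sgLuc replicate 1 or sgBcor + sgLuc replicate 1, and Ddx58 without sgEzh2 + sgRunx1 replicate 4, sgEzh2 + sgLuc replicate 2 or sgLuc replicate 2. Oas1g came closest there, with all sgEzh2 + sgRunx1 libraries above all of sgEzh2 + sgLuc (log2 fold change 1.995, SE 0.66, edgeR FDR 0.052). In this comparison 31 of 33 genes had a log2 fold change above 0 (median 0.26, and 0.0497 without sgEzh2 + sgLuc replicate 3), against 45.1% of all genes. Oas1g was the 1 member without overlap, where 10.8% of all genes were higher without overlap. For sgBcor + sgRunx1 against sgRunx1 + sgLuc the count was 0 by edgeR and 1 by DESeq2, with 4 at an unadjusted p under 0.05, where 1.24% passed, and 1, Ifit2, passed without sgEzh2 + sgRunx1 replicate 3. Ifi44 stood at 0.667, 0.481 and 0.167 CPM in sgBcor + sgRunx1, against 1.97, 1.59 and 1.47 in sgRunx1 + sgLuc, and at 2.07, 2.27 and 0.745 in sgBcor + sgLuc. sgBcor + sgRunx1 lay below sgRunx1 + sgLuc with no overlap for 6 of 33 genes (Mx1, Mx2, Ifi44, Ifit2, Cmpk2 and Parp14) and above it for 2 (Oasl1 and Ifitm3), where 12.3% and 10.3% of all genes did so.

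The remaining members did not pass in any comparison. In sgEzh2 + sgRunx1, Ifi27l2a ranged over 53.4 to 265 CPM, Oas3 over 33 to 103, Oasl1 over 3.45 to 25.8, Dhx58 (the sensor LGP2) over 21.8 to 53.4 and Xaf1, a pro-apoptotic partner of XIAP, over 13.6 to 35.9, against 43.4 to 177, 38.1 to 122, 5.88 to 13.1, 27.4 to 42.1 and 12.6 to 22.4 in sgLuc. Cmpk2, a mitochondrial nucleotide kinase next to Rsad2, ranged over 44.7 to 69.2, against 51.7 to 85.9, and the ADP-ribosyltransferase family genes Parp9 and Parp14 over 29.6 to 44.4 and 49.9 to 101, against 30.1 to 42.4 and 48.5 to 77.4. Rtp4, Trim30a and Ifi35 ranged over 9.57 to 34.7, 62.6 to 130.17 and 21.7 to 30.8 in sgEzh2 + sgRunx1, against 12.8 to 33.2, 73.3 to 106 and 18.1 to 34.9 in sgLuc. In each the lowest sgEzh2 + sgRunx1 value was that of replicate 3.

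Genes upstream of the set were examined from lists of the pathway. The type I interferon ligands had few reads: the 10 interferon alpha genes listed had 2 reads in all libraries together and Ifnb1 had 15, with reads in 8 libraries and at most 5 in any. A count of 0 allows up to 3 reads, or 0.0525 to 0.0999 CPM from the largest to the smallest library, for counting error only. Ifnz had 61 reads in sgLuc (mean 0.295 CPM) and 9 to 19 in each other group (means 0.065 to 0.139), and Ifnk had 0 to 13 per group. Of 17 ligand genes 2, Ifnz and Ifng, were tested and none passed in any comparison. Ifng, the type II ligand, stood at 3.94, 14.4 and 2.7 CPM in sgBcor + sgLuc, where the highest value belonged to replicate 2, at 0.22, 0.0484, 0.51 and 0.697 in sgEzh2 + sgRunx1 and at 0, 1.27 and 0 in sgBcor + sgRunx1, against 0.324 to 7.65 in sgLuc.

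Among the 15 receptor, kinase and feedback genes, the receptor chains Ifnar1 and Ifnar2 did not pass in any comparison and ran from 107 to 112 and 80.2 to 100.15 CPM in sgEzh2 + sgRunx1, against 83.3 to 124 and 93.6 to 126 in sgLuc. In sgEzh2 + sgRunx1 against sgLuc 1 rose and 1 fell. Socs3, a feedback inhibitor of cytokine receptors, stood at 171, 342, 339.56 and 239.96 in sgEzh2 + sgRunx1, against 26.9 to 113 (median 73.9) in sgLuc (log2 fold change 1.91, SE 0.40, edgeR FDR 0.00463). Its relative Socs1, which restrains interferon receptors, stood at 7.71, 5.23, 6.48 and 6.95 CPM in sgEzh2 + sgRunx1, against 8.07 to 23.5 (median 13.3) in sgLuc, and was the one that fell (log2 fold change −1.17, SE 0.32, edgeR FDR 0.0221). Neither pair of groups overlapped. Ifngr2, a chain of the interferon gamma receptor, fell in sgRunx1 + sgLuc (log2 fold change −0.64) and in sgBcor + sgLuc (−0.69), and Ifngr1 fell in sgEzh2 + sgLuc (−0.85), against sgLuc. For sgEzh2 + sgLuc 0 of the 15 passed without replicate 3, and Ifngr1 stood at 167, 196 and 61.3 CPM in the 3 sgEzh2 + sgLuc libraries, against 223 to 292 in sgLuc. For sgBcor + sgRunx1 against sgLuc 0 of the 15 passed. Of all genes 10.1% passed for sgEzh2 + sgRunx1, 14.4% for sgBcor + sgRunx1, 8.12% for sgRunx1 + sgLuc, 8.25% for sgEzh2 + sgLuc and 3.16% for sgBcor + sgLuc against sgLuc. Over all settings 1 to 3 of the list passed for sgEzh2 + sgRunx1, 0 to 2 for sgRunx1 + sgLuc, 0 to 4 for sgEzh2 + sgLuc and 0 to 1 for sgBcor + sgLuc.

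Of 18 tested genes of nucleic acid sensing, 1 rose and 3 fell in sgBcor + sgRunx1 against sgLuc (log2 fold changes in parentheses here and for the lists that follow): the kinase Ikbke (0.60), and the endosomal receptors Tlr9 (−1.95) and Tlr3 (−2.94) and the STING gene Tmem173 (−0.70). sgEzh2 + sgRunx1 against sgBcor + sgRunx1 had 2 higher, the adaptor Mavs (1.036) and Tmem173 (0.83), and 1 lower, Traf3 (−0.43). In sgEzh2 + sgRunx1 against sgLuc Ikbke rose (0.67) and Traf3 fell (−0.33), and in sgRunx1 + sgLuc the transcription factor Irf3 fell (−0.53). No gene of this list passed in sgEzh2 + sgLuc or sgBcor + sgLuc against sgLuc. Over all settings 1 to 8 passed in sgBcor + sgRunx1 against sgLuc and 0 to 6 between the doubles, where 14.4% and 7.05% of all genes passed. It was 0 to 3 in sgEzh2 + sgRunx1 and 0 to 3 in sgRunx1 + sgLuc against sgLuc, where 10.1% and 8.12% of all genes passed. Trex1 was listed at 0 in every library, and whether its reads were absent or left out by the counting was not tested.

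A second list of 46 tested interferon response genes, which holds none of the 33, was read in the same comparisons. In sgBcor + sgRunx1 against sgLuc 7 fell and 0 rose (median −0.32), where 9.69% of all genes were lower, among them Ifi203 (−2.42), Phf11b (−2.08) and the PML body gene Pml (−0.80). Without sgEzh2 + sgLuc replicate 3 it was 9 lower and 2 higher, and over all settings 3 to 12 genes passed. sgEzh2 + sgRunx1 against sgBcor + sgRunx1 had 6 higher and 0 lower (median 0.33), namely Ifit1bl1 (2.99), Ifi205 (2.63), Ifi203 (2.41), Phf11b (1.77), Ms4a4c (1.72) and the ubiquitin ligase Herc6 (1.07). Over all settings 1 to 10 passed, with 10 higher without sgEzh2 + sgLuc replicate 3. Of all genes 4.83% were higher between the doubles. sgEzh2 + sgRunx1 against sgLuc had 1 higher, Herc6 (0.65), and 2 lower, Ifit1bl2 (−3.82) and the stem cell antigen Ly6a (−2.04), where 10.1% of all genes passed. Against sgEzh2 + sgLuc it had 2 higher and 4 lower (0 and 2 without sgEzh2 + sgLuc replicate 3), where 12.6% passed. sgBcor + sgRunx1 against sgRunx1 + sgLuc had 0 higher and 2 lower, where 1.24% passed. Against sgBcor + sgLuc it had 0 higher and 5 lower, where 12.2% of all genes passed. The 5 were Ifi203 (−2.19), Phf11b (−1.89), Pml (−1.08), Herc6 (−1.07) and Parp11 (−0.72). Without sgEzh2 + sgLuc replicate 3 it was 2 higher and 8 lower, and over all settings 1 to 10 passed. The Bcor interaction had 0 higher and 3 lower (Herc6, Pml and Ifi203; 0 to 5 over all settings), where 3.22% of all genes were called. In sgRunx1 + sgLuc against sgLuc 1 was higher, Ddx60 (1.32), in sgEzh2 + sgLuc 1 was higher and 2 lower (0 and 0 without its replicate 3), and in sgBcor + sgLuc 0 passed.

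Of 30 tested genes of the interferon gamma and MHC class I list, 6 rose in sgRunx1 + sgLuc against sgLuc, where 2.76% of all genes were higher, among them the guanylate-binding protein genes Gbp7 (1.36), Gbp5 (1.73) and Gbp2 (2.34). Over all settings 1 to 11 genes of the list passed there, with 1 without sgRunx1 + sgLuc replicate 3 and 2 without sgRunx1 + sgLuc replicate 1. Gbp7 was also higher in sgBcor + sgLuc against sgLuc (log2 fold change 1.05, SE 0.25, edgeR FDR 0.0262). In sgBcor + sgRunx1 against sgBcor + sgLuc 6 genes of the list fell and 0 rose (2 to 7 passed over all settings), where 12.2% of all genes passed. The Bcor interaction had 7 lower, Gbp7 (−1.94) and Gbp5 (−2.86) among them, and 0 higher (0 to 14 over all settings), where 3.22% of all genes were called. In sgEzh2 + sgRunx1 against sgLuc, where 10.1% of all genes passed, 1 fell, Ciita (−1.70), the activator of MHC class II genes. In sgBcor + sgRunx1 against sgLuc, where 14.4% passed, 4 fell, Ciita among them (−4.11). B cell markers moved beside it: of 7 tested, 6 were lower in sgEzh2 + sgRunx1 and 5 in sgBcor + sgRunx1 against sgLuc, and their summed level ran over 27.9 to 50.1 CPM for sgEzh2 + sgRunx1 libraries and 20.02 to 44.9 for those of sgBcor + sgRunx1, against 249.5 to 740.5 in sgLuc. All 4 plasma cell markers were lower in both, at 7.77 to 24.5 CPM summed for sgEzh2 + sgRunx1 libraries and 5.47 to 14.7 for those of sgBcor + sgRunx1, against 303.4 to 3786 in sgLuc. These levels were not particular to the doubles. In sgRunx1 + sgLuc the B cell sums were 52.8, 25.5 and 31.2 CPM and the plasma cell sums 39.4, 19.7 and 15.8. Ciita averaged 10.7 CPM in sgRunx1 + sgLuc, against 30.1 in sgLuc, and did not pass there. Of 7 macrophage markers 3 were lower in each double against sgLuc, and the summed ranges overlapped. They were 139 to 162 CPM for sgEzh2 + sgRunx1 libraries and 84.04 to 224 for those of sgBcor + sgRunx1, against 132 to 372 in sgLuc. Other markers of this list had higher means than in sgLuc, such as Adgre1 in sgEzh2 + sgRunx1 (81.2 against 63.3) and Vcam1 in sgBcor + sgRunx1 (115 against 65.9). The part of these cells in the Ciita levels was not tested.

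Cell type markers differed between the libraries beside the set. The summed plasmacytoid dendritic cell markers (9 genes) were 369, 163, 190.5 and 335 CPM in sgEzh2 + sgRunx1, 202, 264 and 166 in sgBcor + sgRunx1, 221, 194 and 197 in sgRunx1 + sgLuc, 505, 586 and 381 in sgEzh2 + sgLuc, and 464, 422 and 385 in sgBcor + sgLuc, against 261 to 620.3 in sgLuc. Their defining gene Siglech stood at 73.9, 3.17, 12.4 and 56.6 in sgEzh2 + sgRunx1, against 32.9 to 187 (mean 89.2) in sgLuc. Replicates 1 and 4 thus lay within the sgLuc range for Siglech and replicates 2 and 3 below it. The medians of the set in the 4 libraries were 0.93, 0.30, −0.70 and 0.88. In sgBcor + sgLuc Siglech was 103, 107 and 73.2 while the medians were −0.46, 0.42 and −0.64. Summed classical monocyte markers were 4349, 5130.2, 4354 and 4398 CPM in sgEzh2 + sgRunx1 and 3976, 2544 and 1757 in sgBcor + sgRunx1, against 2950.02 to 3995 in sgLuc. The singles held 3526, 3503 and 3252 (sgRunx1 + sgLuc), 2337, 3095 and 191 (sgEzh2 + sgLuc) and 2405, 3166 and 2232 (sgBcor + sgLuc). The part of these cells in the levels of the set was not tested.

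**Figure D4:**
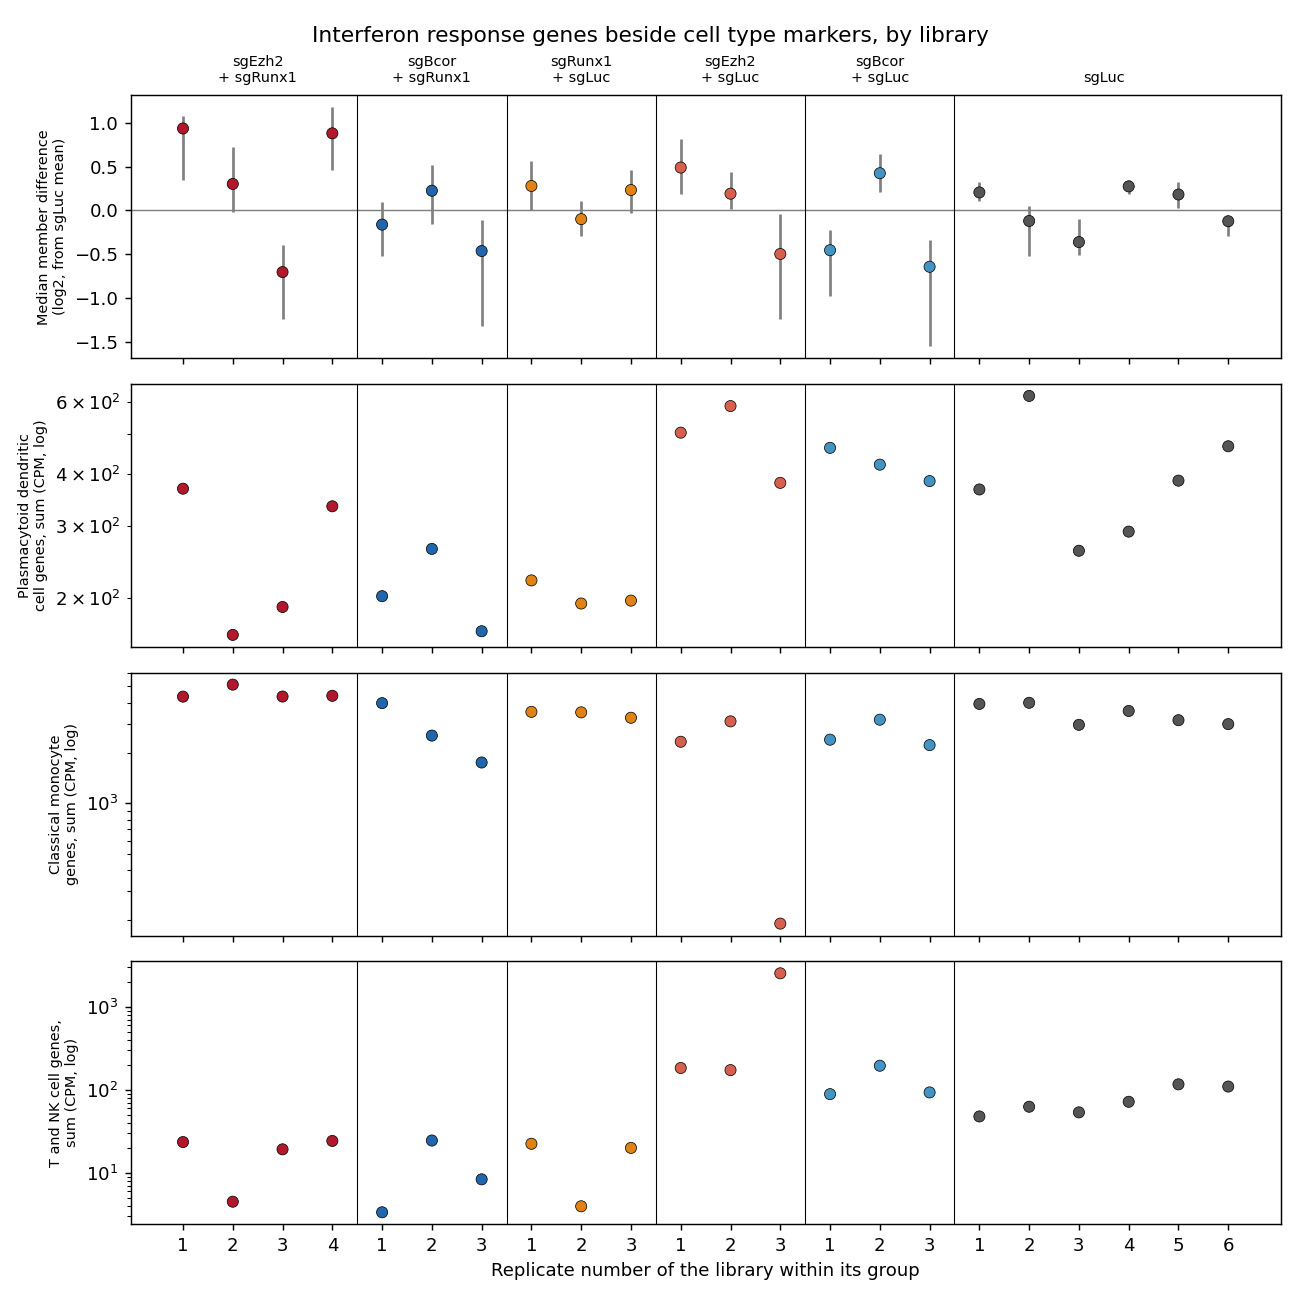
For each library, by group and replicate, the median difference of the 33 genes from the sgLuc mean (log2, top panel, bars from the first to the third quartile over genes) and the summed CPM of plasmacytoid dendritic cell, classical monocyte, and T and NK cell markers (log axes). Within sgEzh2 + sgRunx1 the median runs from −0.70 to 0.93 while monocyte markers stay between 4349 and 5130.2 CPM, and sgEzh2 + sgLuc replicate 3 is set apart by its T and NK cell markers.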

How the data were processed

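Whole bone marrow RNA of 22 libraries was converted with oligo(dT) primers, per the labels' protocols. Reads were trimmed with fastp, aligned with HISAT2 to mm9 and counted with HTSeq, per the submitters' processing notes. No version, annotation or strand setting was given in the sources used here, so reads of overlapping genes on opposite strands may not be told apart. The authors deposited raw read counts per gene for 47069 genes, used for all tests. The authors also deposited FPKM values, which were recovered by dividing each count by its library's total and by 1 length for the gene (14383 of 14383 genes with reads in every library, relative tolerance 1e-06). FPKM served only for levels between genes. Rows were matched by gene name, and 46488 identifiers (98.77%) matched GENCODE M21 (GRCm38), which gave positions. RefSeq (GRCm38.p6) gave promoters. No mm9 coordinate is used.

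Groups and replicate numbers come from the sample titles. Titles and descriptions number 4 libraries differently. Genes were kept by filterByExpr (minimum count 10, total 15), leaving 17659. edgeR 4.0.16 in R 4.3.3 fitted 6 group means to the 22 libraries with TMM scaling and robust quasi-likelihood tests (16 residual degrees of freedom). P-values were adjusted by Benjamini-Hochberg over all genes tested and called at FDR under 0.05, for 10 pairwise comparisons and 2 interactions. The SE is the log2 fold change divided by the root of the F statistic, which is approximate. Log2 CPM used a prior count of 2. The fit was tested on simulated data. Alternatives were RLE size factors, no filter, DESeq2 1.42.0, only the compared groups, a replicate block and leaving out each library. Named genes were a fixed panel by role, the members called in each comparison and the called genes of each pathway list. Genes just outside the threshold or without overlap were named after their values were seen. The members and lists were chosen with earlier results of these data known. Libraries held 30023722 to 57175449 counted reads, and intervals and floors cover counting error only.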

Additional observations from a re-analysis of the deposited data

Results flagged for a closer look

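In sgEzh2 + sgRunx1, replicate 3 lay far from the other 3 libraries for 3 genes. Oas1a was at 24.3 CPM there, against 66.4 to 70.3 in the others. Oas3, the long oligoadenylate synthetase, was at 32.98 CPM, against 92 to 103 in the others. Ifi35 was at 21.7 CPM, against 30.4 to 30.8 in the others. These are 3 of 66 sets of values examined, 1 for each gene in sgEzh2 + sgRunx1 and in sgLuc. Where sets are independent chance flags about 1 in 20. These 3 come from the same library, so they are not independent. The Oas1g difference between marrow with and without the Bcor guide itself differed with and without the Runx1 guide, by 4.16 on the log2 scale (edgeR FDR 0.0287). This was the largest interaction value of the 33 genes. The call held in 18 of 22 omissions of a library (edgeR FDR up to 0.0891). The limits given above for sex in sgLuc and for reads shared with Oas1a apply to it.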

How the results depend on the processing

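Over the alternatives, the number of called members kept within 1.5 times its value in 241 of 324 comparisons of settings, was higher in 33 and lower in 50. The main counts ran from 0 to 3, and for a count of 0 or 1 keeping within 1.5 times meant no change. Direction was followed only for the called members and for chosen genes that did not pass, and none of these reversed. With DESeq2 the count was 2 for sgEzh2 + sgRunx1, 2 for sgBcor + sgRunx1, 2 for sgRunx1 + sgLuc and 3 for sgBcor + sgLuc against sgLuc, 2 for sgEzh2 + sgRunx1 against sgEzh2 + sgLuc and 1 for sgBcor + sgRunx1 against sgRunx1 + sgLuc. With only the compared groups it was 3 (sgEzh2 + sgRunx1), 2 (sgBcor + sgRunx1), 5 (sgRunx1 + sgLuc) and 2 (sgBcor + sgLuc) against sgLuc, 1 for sgBcor + sgRunx1 against sgBcor + sgLuc, 1 between the doubles and 3 for the Bcor interaction. Without the filter it was 0 for sgBcor + sgRunx1 against sgLuc, 1 for sgBcor + sgRunx1 against sgBcor + sgLuc and 0 for the Bcor interaction, and with RLE size factors 0 for sgBcor + sgRunx1 against sgLuc. The cause was not tested.

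The replicate numbers of the titles showed no pairing of the libraries: over 45 same-numbered pairs the correlation of deviations averaged 0.0154, and 0 exceeded 0.1. The descriptions number 4 libraries differently, all of sgBcor + sgRunx1 among them. Those numbers were not tested, so these values cannot exclude a pairing. The replicate block used the title numbers too. With the replicate block 0 members were called for sgEzh2 + sgRunx1 (Ifi44 at 1.74, edgeR FDR 0.108) and 0 for sgRunx1 + sgLuc (Ifit2, edgeR FDR 0.128) against sgLuc, and 2 for sgEzh2 + sgRunx1 against sgEzh2 + sgLuc.

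Leaving out each of the 22 libraries in turn gave, against sgLuc, 1 to 4 called members for sgEzh2 + sgRunx1, 0 to 2 for sgBcor + sgRunx1, 0 to 2 for sgRunx1 + sgLuc, 0 to 0 for sgEzh2 + sgLuc and 0 to 2 for sgBcor + sgLuc. It gave 0 to 0 for sgEzh2 + sgRunx1 against sgRunx1 + sgLuc, 0 to 1 against sgEzh2 + sgLuc and 1 to 4 against sgBcor + sgRunx1, with 4 without sgEzh2 + sgRunx1 replicate 3. It gave 0 to 1 for sgBcor + sgRunx1 against sgRunx1 + sgLuc and 1 to 3 against sgBcor + sgLuc, 0 to 0 for the Ezh2 interaction and 0 to 1 for the Bcor interaction. Group sizes of 3 to 6 and the spread within sgEzh2 + sgRunx1 limit what these tests can show.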
